A study of Homo sapiens with 6 samples.

Results

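The genes described here are PTGS2, a set of cytokine genes and targets of the transcription factor NF-kB, measured in the human ovarian cancer cell line CAOV2 after YAP was silenced. The set was defined as 10 genes: PTGS2, CSF1, CSF2, CXCL8, CXCL1, LIF, ICAM1, TNFAIP3, NFKBIA and IL7R. Of these, 9 were analysed among the 17211 genes listed, all 9 passed the filter on low values, and CXCL1 was not analysed here. The siRNA dose was 100 pmol, carried by 6 µL of a lipid reagent; transfection lasted 2 days and harvest was on day 3. The cells received either non-targeting control siRNA (siNT, 3 libraries) or siRNA against YAP (siYAP, 3 libraries). Poly(A) RNA was sequenced from stranded libraries. The sample titles also call these cells primary. Each group received its own siRNA, and each of these siRNAs had its own supplier. An effect of the siRNA reagent and an effect of losing YAP therefore cannot be told apart. The labels number the libraries as biological replicates without naming separate passages or days, so each p-value is set by library-to-library spread, which may be technical.

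NF-kB is a family of dimeric transcription factors held in the cytoplasm by inhibitors of the IkB family. Signals from receptors for tumour necrosis factor, interleukin-1 or microbial products activate the IKK kinases, which mark IkB for destruction and release the dimers to bind kB sites in promoters. Its classical targets include chemokines, colony-stimulating factors and adhesion molecules, and also genes that switch the pathway off again. In epithelial tumours such transcripts are known for recruiting myeloid cells and for prostaglandin production. YAP is a co-activator that works mainly through TEAD factors.

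The promoter letters of the members are shown first, since they are what most of these genes have in common in textbook accounts. RefSeq windows on GRCh38.p14, from 250 bases before to 50 after the start of transcription, were found for 7 of the 9 genes (none for CSF1 and LIF). Only the first listed window of each gene was searched, so any other start of a gene is not covered. Both strands were searched for GGGANNTTCC, a strict form of the kB site, for GGAANTTCC, its palindromic form, and for GGGANNNNCC, a broad form that contains the strict one. The strict form was in 1.61% of all 34943 windows and in the windows of TNFAIP3 and NFKBIA. The palindromic form was in 0.964% of all windows and in those of CXCL8, ICAM1 and NFKBIA. The broad form was in 25.6% of all windows and in all 7 of the members', so a broad match alone is a common feature. These stretches are given in the direction of the gene with the matching letters in capitals, and are shown because they can be compared letter by letter between genes that fell and genes that rose:
PTGS2: caggagagtgGGGACTACCCcctctgctcc
CSF2: ccacagttcaGGTAGTTCCCccgcctccct
IL7R: gggggctgcaGGGAATATCCaggaggaaca
ICAM1: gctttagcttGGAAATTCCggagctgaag
CXCL8: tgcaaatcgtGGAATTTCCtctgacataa
TNFAIP3: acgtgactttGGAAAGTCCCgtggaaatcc
NFKBIA: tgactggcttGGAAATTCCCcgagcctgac

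On GRCh38.p14 these stretches are chr1:186680628-186680657 (minus strand) for PTGS2, chr5:132073694-132073723 (plus) for CSF2 and chr5:35856696-35856725 (plus) for IL7R. The others are chr19:10270924-10270952 (plus) for ICAM1, chr4:73740468-73740496 (plus) for CXCL8, chr6:137867182-137867211 (plus) for TNFAIP3 and chr14:35404811-35404840 (minus) for NFKBIA. The match began 224 bases before the start in PTGS2 (base -224), at -85 in CSF2, -185 in IL7R, -186 in ICAM1, -91 in CXCL8, -67 in TNFAIP3 and -81 in NFKBIA. Those of ICAM1 and TNFAIP3 lie inside an annotated exon of the same gene. That of IL7R lies inside the annotated span of the gene but outside its exons. Of the genes that fell, PTGS2, CSF2 and IL7R hold only the broad form, and ICAM1 holds the palindromic form as well. Those that rose (CXCL8, TNFAIP3, NFKBIA) each hold the strict or the palindromic form. A relation of form to direction was not tested, and a match is a description of the sequence, not evidence of binding. The AP-1 letters TGANTCA were in 7.72% of all windows and, among these 7 genes, in that of CXCL8. The TEAD letters GGAATG were in 14.0% of all windows and in none of the 7, which says only that these letters are not in these windows. The stretches upstream of the annotated exons of PTGS2 (chr1:186680428-186680673, minus strand), CSF2 (chr5:132073539-132073788, plus strand) and CXCL8 (chr4:73740319-73740505, plus strand) are printed whole, with kB, AP-1 or TEAD letters in capitals, because PTGS2 and CSF2 fell while CXCL8 rose:
PTGS2: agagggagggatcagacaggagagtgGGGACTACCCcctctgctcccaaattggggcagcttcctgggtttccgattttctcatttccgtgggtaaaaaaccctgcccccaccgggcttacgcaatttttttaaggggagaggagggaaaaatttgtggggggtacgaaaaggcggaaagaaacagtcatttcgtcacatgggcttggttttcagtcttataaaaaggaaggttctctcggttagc
CSF2: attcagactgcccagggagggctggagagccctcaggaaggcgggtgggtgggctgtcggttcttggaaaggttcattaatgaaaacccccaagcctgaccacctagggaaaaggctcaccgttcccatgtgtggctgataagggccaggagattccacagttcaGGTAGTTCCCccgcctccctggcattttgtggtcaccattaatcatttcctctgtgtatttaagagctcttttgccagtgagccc
CXCL8: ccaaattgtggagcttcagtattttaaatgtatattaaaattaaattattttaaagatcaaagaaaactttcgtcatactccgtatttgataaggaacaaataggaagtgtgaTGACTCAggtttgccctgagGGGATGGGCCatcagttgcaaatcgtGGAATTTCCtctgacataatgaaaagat

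Silencing was seen in YAP1 itself, at 5801 to 6221 normalized read counts in siNT and 278 to 327 in siYAP. The recovered reads came to between 25478595 and 31790340 per library. Of 10 epithelial and ovarian carcinoma markers 9 were analysed, and 2 were called higher, 3 lower and 4 were not called. The keratins KRT7 (log2 -0.97), KRT18 (log2 -0.68) and KRT19 (log2 -0.29) fell, and EPCAM (log2 0.74) and CDH1 (log2 0.93) rose. KRT8 was not called, and the ovarian markers PAX8, MUC16 and MSLN, also not called, had group means of 28.8 normalized counts or less; these 4 were chosen after their values were seen. Of 14 immune cell markers, 5 were analysed, and PTPRC, the pan-leukocyte marker, was not analysed here. CD79A (log2 -1.40), LYZ (log2 -1.59) and CD68 (log2 -0.65) were called lower, CD14 was called higher (log2 0.45, a call lost in 3 of 16 other settings) and ITGAX was not called. The summed level of these 5 was 209.4 to 223 normalized counts in siNT and 154 to 171 in siYAP. The 7 fibroblast and endothelial markers analysed summed to 7482.5 to 8072 in siNT and 15637 to 16065.5 in siYAP. Of these 7, 4 were called higher and 3 lower. COL3A1 (log2 2.22), LUM (log2 1.37) and PDGFRA (log2 0.26) were among those that rose, and COL1A2 (log2 -2.60) and ESAM (log2 -0.45) among those that fell. COL1A2 was near the floor, at means of 12.6 normalized counts in siNT and 1.25 in siYAP. The part of these shifts in the results that follow was not tested, and in bulk RNA fewer cells of a kind and less RNA per cell cannot be told apart.

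The members split by direction rather than moving as a block. PTGS2, CSF2, IL7R, LIF and ICAM1 were lower in siYAP and CXCL8, TNFAIP3, CSF1 and NFKBIA were higher: 5 fell and 4 rose by limma, a linear model on the log2 scale, at an adjusted p under 0.05, out of 9 tested. The same rule called 56.8% of the 17200 genes tested, 28.6% as higher and 28.1% as lower. Each count of called genes in the other lists is to be read beside these shares. In none of the 9 did the siNT and siYAP libraries overlap, which also held for 61.5% of all tested genes. The median log2 difference over the 9 was -0.32, against 0.0036 over all tested genes. The members were chosen with results of these data known, so the count of 9 is a description and carries no weight of its own. In size the differences ran from IL7R, at 24.2% of its control level, to CXCL8, at 222%.

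**Figure D1:**
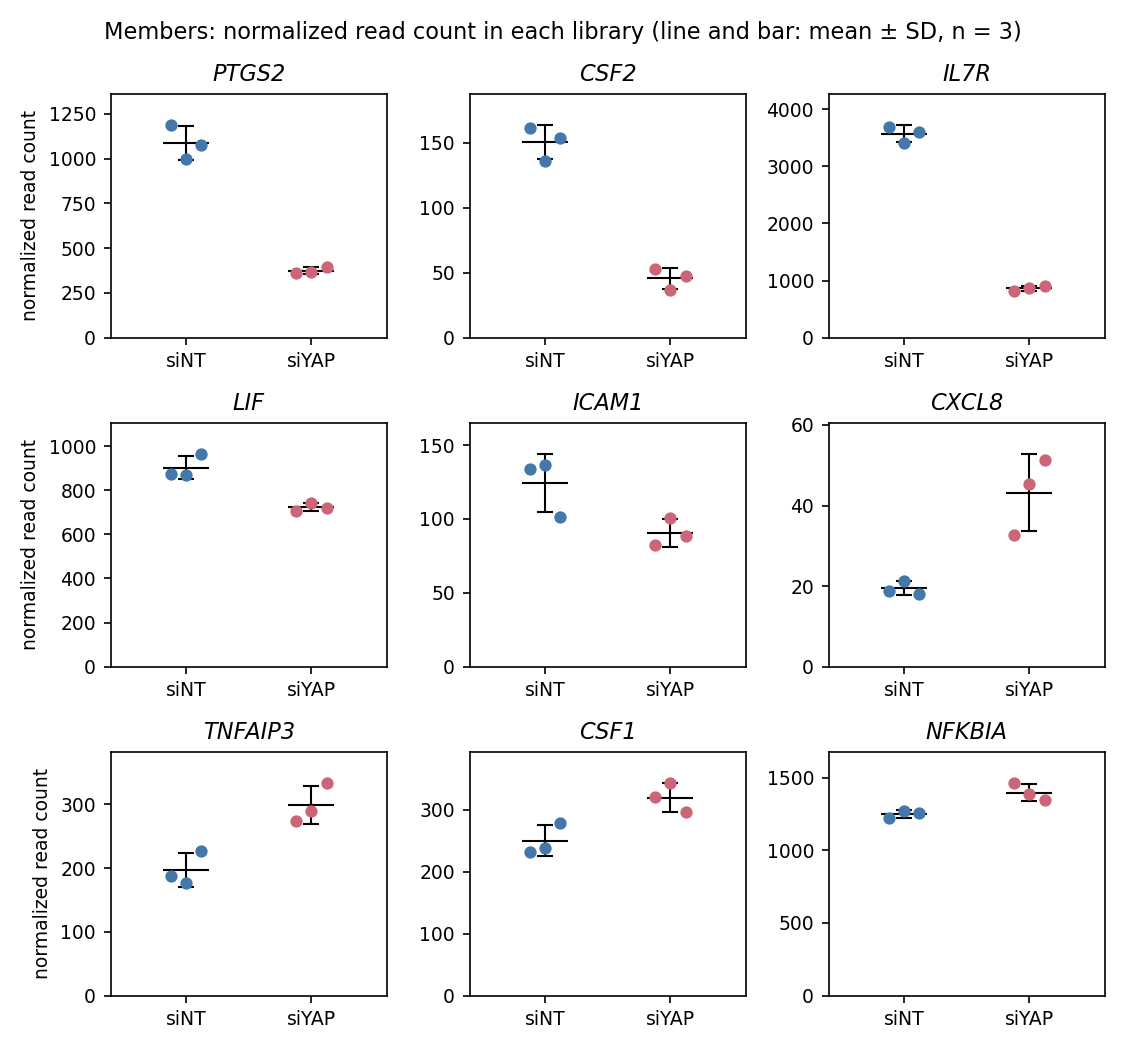
Normalized read count (vertical axes, starting at 0) of the 9 members in each of the 3 siNT and 3 siYAP libraries; points are libraries and the line with its bar is the mean ± SD. In every panel the points of one group lie above all points of the other, with the widest gap in IL7R (3408 to 3694 against 825 to 903).

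PTGS2 encodes the inducible cyclooxygenase, which makes the precursor of all prostaglandins from arachidonic acid. It lies on GRCh38 chromosome 1, 186671791 to 186680427, on the minus strand (ENSG00000073756, protein-coding). The 3 siNT libraries gave 1186, 998 and 1077 normalized read counts (reads over a library size factor), and the siYAP libraries gave 359, 367 and 396. Every siYAP library was thus below the lowest siNT library, and the siYAP values were close to each other. The means were 1087 ± 94.5 and 374 ± 19.3 (SD, n = 3 each), so that siYAP held 34.4% of the control level, a log2 difference of -1.53 ± 0.0713 (standard error; limma, adjusted p = 5.77e-14). PACERR, a noncoding transcript that starts upstream of PTGS2 on the other strand and overlaps the printed promoter, was near the floor, at 8.38, 10.7 and 15.7 in siNT and 6.34, 3.95 and 5.71 in siYAP. PACERR was picked out after its values were seen. Its log2 difference of -0.97 had a limma adjusted p of 0.0418, and the call was lost in 8 of the 14 other settings that gave a value, with adjusted p-values from 0.0295 to 0.184.

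The 5 genes whose 6 mean-centred log2 values lay nearest to those of PTGS2, among the 9255 genes that passed a minimum mean level set relative to PTGS2, were XRCC4 (a DNA end-joining factor), UHMK1 (a serine/threonine kinase), EDEM3 (an enzyme of glycoprotein quality control), MCL1 (an inhibitor of apoptosis) and SAMD5. Their Euclidean distances were 0.102 to 0.208. With 2 groups of 3 libraries, this nearness is mostly a like fall: their log2 differences were -1.58, -1.46, -1.45, -1.48 and -1.56.

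Around PTGS2, other genes of prostaglandin synthesis, inactivation, transport and reception were taken as 1 list. Of 24 such genes 17 were analysed, and 10 rose, 3 fell and 4 were not called. Of all tested genes, 28.6% were called higher and 28.1% lower. With libraries scaled to equal totals 1 of the 17 fell, and without siNT replicate 2 also 1. The list mixes these roles, so its count is not one of synthesis genes. The median log2 difference of the 17 was 0.31. The 5 genes of the list with the smallest p-values, 4 enzymes and a transporter, were all higher, while the 3 that fell were the prostaglandin E synthases PTGES, PTGES2 and PTGES3. AKR1C3, an aldo-keto reductase that makes F-type prostaglandins, went from 1475 ± 117 to 4925 ± 73.0 normalized counts (SD, n = 3; log2 1.74); it has close paralogs with which it may share reads. HPGD, the dehydrogenase that inactivates prostaglandins, was read at 5137, 4738 and 4617 normalized counts in siNT and 7128, 7041 and 7301 in siYAP (log2 0.57). The reductases PTGR1 (log2 0.78) and CBR1 (log2 0.40) also rose. SLCO2A1, the transporter that takes prostaglandins up from outside the cell, rose from 14.8 ± 1.06 to 71.9 ± 6.70 (SD, n = 3; log2 2.21). Limma adjusted p-values of these 5 lay between 7.37e-17 and 8.17e-07.

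The remaining prostaglandin genes named here were chosen after their values were seen. PTGS1, the constitutive cyclooxygenase, was near the floor in siNT, at 5.24, 4.28 and 3.63 normalized counts, and at 21.7, 17.8 and 21.9 in siYAP (log2 2.00). PTGS1 was thus higher where PTGS2 was lower, though on few reads. PTGES, the inducible prostaglandin E synthase, moved with PTGS2, from 164 ± 10.7 to 132 ± 10.3 (SD, n = 3; log2 -0.31, limma adjusted p = 0.021), a call that was lost in 4 of 16 other settings (adjusted p up to 0.0993). PTGES2 (log2 -0.17) and PTGES3 (log2 -0.27), further E synthases, were called lower too. Of the 3 analysed receptors for E-type prostaglandins, PTGER1 was not called (log2 0.15, limma adjusted p = 0.204), while PTGER4 (log2 0.88) and PTGER2 (log2 1.41) rose, PTGER2 from 7.33, 12.8 and 18.1 to 30.8, 34.5 and 35.2.

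**Figure D2:**
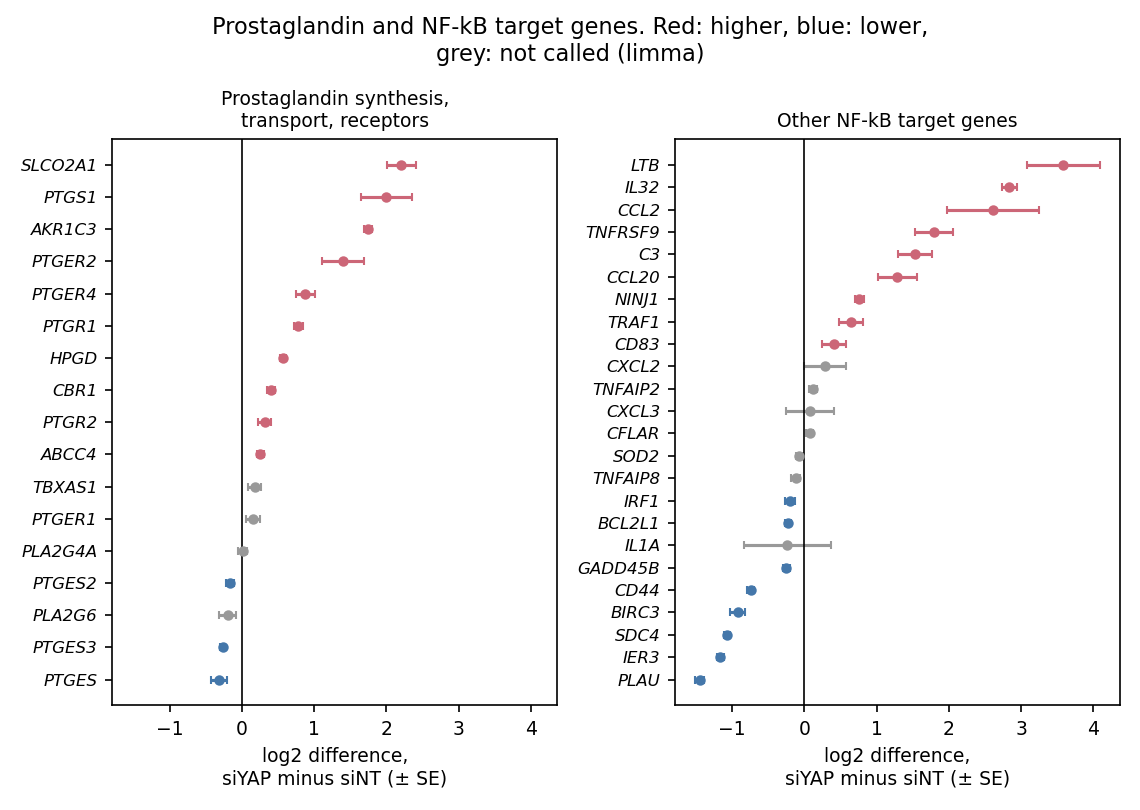
Log2 difference (siYAP minus siNT, horizontal axis) with its standard error for each analysed prostaglandin gene (left) and each analysed NF-kB target gene outside the members (right). In the left panel 10 genes are to the right of 0 as called and 3 to the left, while the right panel is split, with 9 called higher and 8 lower.

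CSF2 encodes GM-CSF, a cytokine that drives the growth and activation of granulocytes and macrophages (ENSG00000164400, chromosome 5, 132073790 to 132076170, plus strand). It was measured at 161, 136 and 153 normalized counts in siNT and at 52.6, 36.5 and 47.6 in siYAP. The groups were far apart, although each siYAP value rests on only 37 to 58 reads. The means of 150.2 ± 13.1 and 45.5 ± 8.21 (SD, n = 3) put siYAP at 30.3% of siNT, with a log2 difference of -1.71 ± 0.154 (standard error; limma, adjusted p = 3.40e-09).

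CSF1 encodes M-CSF, the main growth factor of macrophages (ENSG00000184371, chromosome 1, 109910242 to 109930992, plus strand). In contrast to CSF2 it was higher in siYAP, at 319.9, 342 and 297 normalized counts against 232, 238 and 279 in siNT. The groups did not overlap, but siNT replicate 3 and siYAP replicate 3 were close. The log2 difference was 0.36 ± 0.0931 (standard error; limma, adjusted p = 0.00243). In siNT CSF2 exceeded CSF1 per kilobase of annotated exon, at 191 ± 16.6 against 46.1 ± 4.69 normalized counts per kilobase (SD, n = 3). In siYAP these per-kilobase levels were 57.9 ± 10.4 and 59.0 ± 4.22 and did not differ beyond their spread.

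LIF encodes leukaemia inhibitory factor, a cytokine of the interleukin-6 family (ENSG00000128342, chromosome 22, 30240447 to 30246851, minus strand). Its normalized counts were 873, 870.1 and 963 in siNT and 707, 744 and 720.0 in siYAP, a modest but ordered separation. The fall, to 80.2% of control, was a log2 difference of -0.32 ± 0.0613 (standard error; limma, adjusted p = 0.000136). LIF overlaps LIF-AS2 on the other strand, which had 3.80 to 11.5 normalized counts in the 6 libraries.

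CXCL8 encodes interleukin-8, a chemokine that attracts neutrophils (ENSG00000169429, chromosome 4, 73740506 to 73743716, plus strand). It was the member with the largest rise and the lowest level, at 18.8, 21.4 and 18.1 normalized counts in siNT and 32.6, 45.4 and 51.4 in siYAP. These values stand on 15 to 54 reads per library, and siYAP replicate 1 was the lowest of its group. The means were 19.5 ± 1.71 and 43.1 ± 9.57 (SD, n = 3), a log2 difference of 1.09 ± 0.230 (standard error; limma, adjusted p = 0.000336). CXCL2 and CXCL3, related neutrophil chemokines, were at 12.8 to 24.7 and 9.06 to 15.2 normalized counts over the 6 libraries and were not called (limma adjusted p = 0.414 and 0.858). In siNT both were thus about as scarce as CXCL8. These and CCL20 were chosen after their values were seen. CCL20, a chemokine for dendritic cells and lymphocytes, rose from 12.5 ± 2.20 to 32.3 ± 8.35 (SD, n = 3; log2 1.29).

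IL7R encodes the alpha chain of the interleukin-7 receptor, which lymphocytes need for survival and which also serves in the receptor for TSLP (ENSG00000168685, chromosome 5, 35852695 to 35879603, plus strand). It had the largest fall of the members. Its normalized counts were 3694, 3408 and 3608 in siNT and 825, 866 and 903 in siYAP. The siYAP libraries held 24.2% of the control level, and within each group the libraries were close. The log2 difference was -2.05 ± 0.0521 (standard error; limma, adjusted p = 3.26e-18). The ligand gene IL7 moved the other way, from 63.9, 42.8 and 27.8 to 97.0, 96.7 and 96.1 (log2 1.17), with a siNT group that spread widely; IL7 overlaps ZC2HC1A on the other strand. TSLP, chosen after its values were seen, at means of 79.6 ± 15.5 in siNT and 84.1 ± 7.72 in siYAP (SD, n = 3), was not called (adjusted p = 0.647 by limma).

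ICAM1 encodes an adhesion molecule that leukocyte integrins bind (ENSG00000090339, chromosome 19, 10270835 to 10286615, plus strand). Its normalized counts were 134, 137 and 102 in siNT and 82.5, 100.7 and 88.5 in siYAP, so siNT replicate 3 lay just above the highest siYAP library. The log2 difference was -0.44 ± 0.141 (standard error; limma, adjusted p = 0.0102). The call was lost without siNT replicate 2 (log2 -0.37, limma adjusted p = 0.0530) and in limma without a variance trend (adjusted p = 0.0524), while its adjusted p over all settings ran from 0.00192 to 0.0530. LIMASI, which overlaps ICAM1 on the other strand, was at 3.62 to 21.4 normalized counts.

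Both members that encode brakes on NF-kB rose, to 152% of control in TNFAIP3 and 112% in NFKBIA. TNFAIP3 encodes A20, an enzyme that edits ubiquitin on NF-kB signalling adaptors (ENSG00000118503, chromosome 6, 137867188 to 137883312, plus strand). It went from 187, 176 and 227 normalized counts in siNT to 275, 289 and 333 in siYAP. This is 152% of control, a log2 difference of 0.60 ± 0.105 (standard error; limma, adjusted p = 4.21e-05). WAKMAR2, on the other strand at the start of TNFAIP3, was at 9.06 to 20.9 normalized counts.

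NFKBIA encodes IkB-alpha, the inhibitor that holds NF-kB in the cytoplasm and is itself a rapid target (ENSG00000100906, chromosome 14, 35401511 to 35404749, minus strand). Its normalized counts were 1219.9, 1269 and 1259 in siNT and 1459.9, 1384 and 1347 in siYAP. The groups did not overlap, but the rise was the smallest among the members, to 112% of control (log2 0.16, standard error 0.0527; limma, adjusted p = 0.0128). Without siYAP replicate 1, its highest library, the log2 difference was 0.13 and the call was lost (limma adjusted p = 0.0778).

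**Figure D3:**
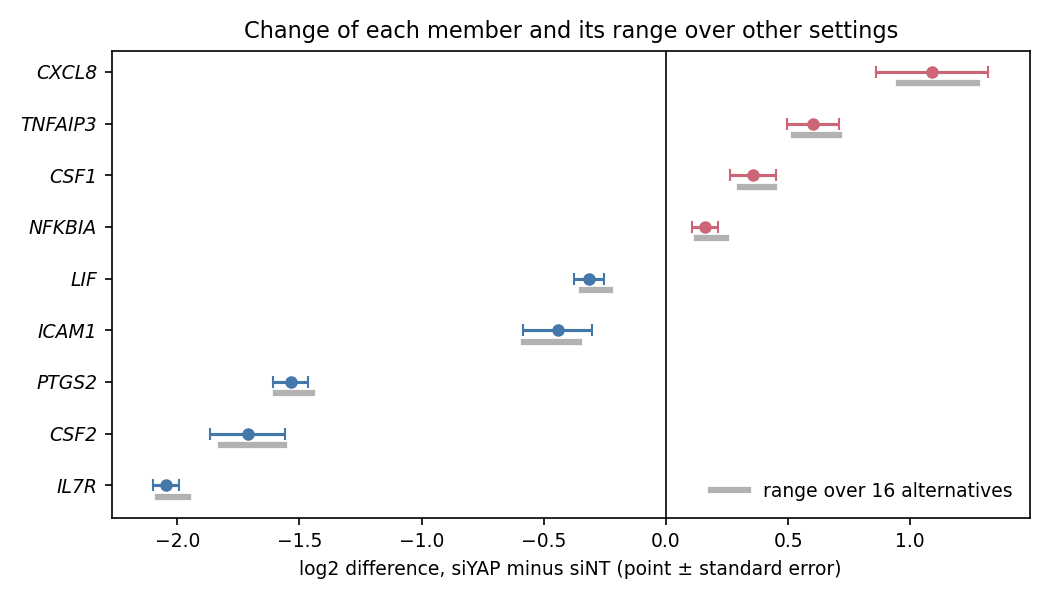
Log2 difference of each member (siYAP minus siNT, horizontal axis; point with its standard error) and, below each point, the range of that difference over 16 other processing settings. No range crosses 0; IL7R, CSF2 and PTGS2 stay between -2.08 and -1.45, and NFKBIA between 0.13 and 0.25.

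The order of levels among the members, taken as normalized counts per kilobase of annotated exon, was changed by these shifts. In siNT, IL7R was highest at 589 ± 24.3 (SD, n = 3), followed by NFKBIA at 526 ± 10.9, and these did not overlap. LIF (227), PTGS2 (206) and CSF2 (191) came next, with neighbours that overlapped. CSF1, TNFAIP3 and ICAM1 lay between 33.5 and 46.1, again with overlapping neighbours, and CXCL8 was last at 8.55. In siYAP, NFKBIA was highest at 589 ± 24.3, LIF second at 182 ± 4.78 and then IL7R at 143 ± 6.44, each separate from its neighbour. TNFAIP3, CSF1 and CSF2 were not separable (57.9 to 59.2), and CXCL8 at 19.0 overlapped ICAM1 at 24.4. The lengths count every annotated exon, so a gene expressed from a short isoform is placed too low.

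**Figure D4:**
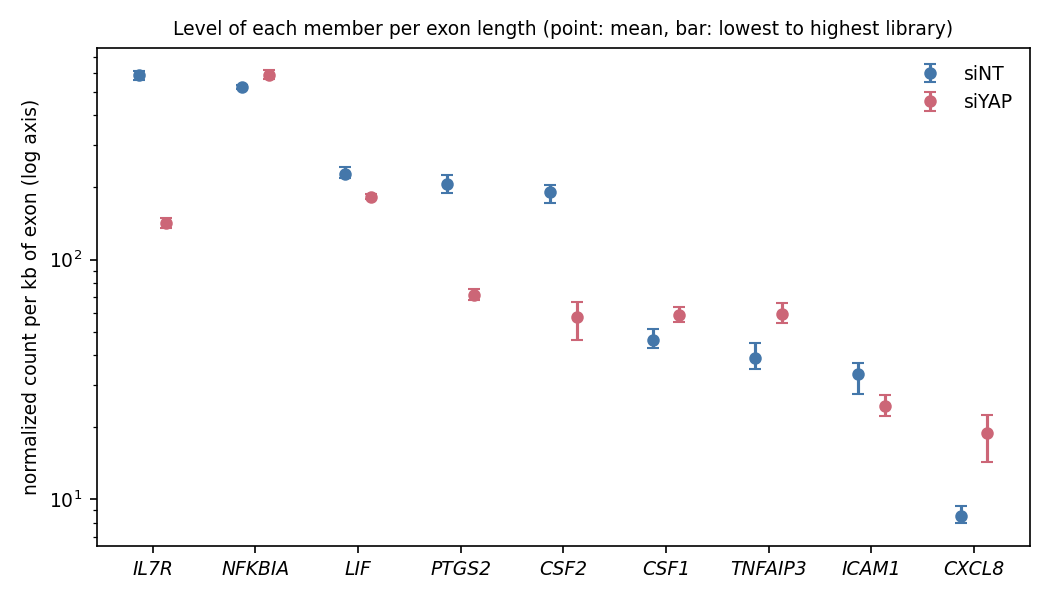
Level of each member in normalized counts per kilobase of annotated exon (vertical log axis) in siNT and siYAP; points are means of 3 libraries and bars run from the lowest to the highest library. IL7R drops from 589 to 143, below NFKBIA and LIF, while CXCL8 rises from 8.55 to 19.0 and remains last.

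The other NF-kB target genes were also divided. Of 38 such genes, 24 were analysed: 9 rose, 8 fell and 7 were not called, with a median log2 difference of 0.08. Of all tested genes, 28.6% were called higher and 28.1% lower, so such a split is common. PLAU, the urokinase plasminogen activator, had 1629, 1673 and 1875 normalized counts in siNT and 578, 651 and 665 in siYAP (log2 -1.45). IER3, an early response gene (log2 -1.17), SDC4, a heparan sulfate proteoglycan (log2 -1.07), and CD44, the hyaluronan receptor (log2 -0.74), fell too. BIRC3, an inhibitor of apoptosis that also acts in NF-kB signalling, was added after its values were seen and fell from 426 ± 57.9 to 223 ± 24.6 (SD, n = 3; log2 -0.93). IL32, a cytokine gene, went the other way, from 55.5, 66.3 and 67.7 to 447, 455 and 466 (log2 2.84, limma adjusted p = 2.48e-15). It was 1 of the 9 that rose. NINJ1 (log2 0.76) and the scarce TNFRSF9 (log2 1.79, means of 16.1 in siNT and 55.8 in siYAP) were added after their values were seen. Both rose, as did CCL20, given above.

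Among NF-kB subunits, IkB proteins and their relatives, 2 of 10 rose, 3 fell and 5 were not called. RELA, the main activating subunit, was chosen after its values were seen and had means of 3334 ± 162 in siNT and 3184 ± 82.2 in siYAP (SD, n = 3), with a limma adjusted p of 0.254. BCL3, a nuclear IkB relative that works with the p50 and p52 subunits, had the largest difference of the list, at 1207, 1329.7 and 1298 against 2174, 2123 and 2009 (log2 0.72). NFKB1, which encodes p50, rose slightly (log2 0.14), a call lost with the replicate number as a block (limma adjusted p = 0.0551) and without siYAP replicate 2 (0.0599). NFKB2 (log2 -0.24), which encodes p52, the inhibitor NFKBIB (log2 -0.31) and NFKBIZ (log2 -0.29), a nuclear IkB relative like BCL3, fell. NFKBIB overlaps SIRT2 on the other strand, and the call of NFKBIZ was lost in limma without a trend (adjusted p = 0.0513).

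Of 25 analysed kinases, adaptors and ubiquitin enzymes that carry or restrain the signal to NF-kB, 9 rose, 7 fell and 9 were not called. The list mixes both roles, so this split is not one of activators. The deubiquitinases moved apart. CYLD, which removes ubiquitin chains from NF-kB adaptors, rose from 721, 673 and 729.9 to 1205, 1377 and 1369 normalized counts (log2 0.89). OTULIN, which removes linear ubiquitin chains, fell from 2362, 2269 and 2362 to 1175, 1235 and 1323 (log2 -0.91). The TAK1-binding adaptors also differed in sign, with TAB3 higher (log2 0.71) and TAB2 lower (log2 -0.37), and the adaptor TRAF2 fell (log2 -0.52). The IKK kinase genes, chosen after their values were seen, gave log2 0.28 for CHUK, which was called, and -0.09 for IKBKB, which was not (limma adjusted p = 0.23).

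Among receptors that activate NF-kB, 15 of 17 were analysed, and 4 rose, 7 fell and 4 were not called; the number that rose was 2 with DESeq2, in limma without a trend and without siNT replicate 3 or any 1 siYAP library. TNFRSF1B, a receptor for tumour necrosis factor, had a mean of 1864 ± 58.3 in siNT and a lower one of 975 ± 38.1 in siYAP (SD, n = 3; log2 -0.94). TLR4, the receptor for bacterial lipopolysaccharide (log2 -0.49), and IL17RA, an interleukin-17 receptor chain (log2 -0.37), also fell. The interleukin-1 receptor chains rose: IL1RAP from 178 ± 22.1 to 347 ± 8.91 (SD, n = 3; log2 0.97), and IL1R1 from 7.33, 7.48 and 4.83 to 29.9, 34.5 and 41.8 (log2 2.28).

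**Figure D5:**
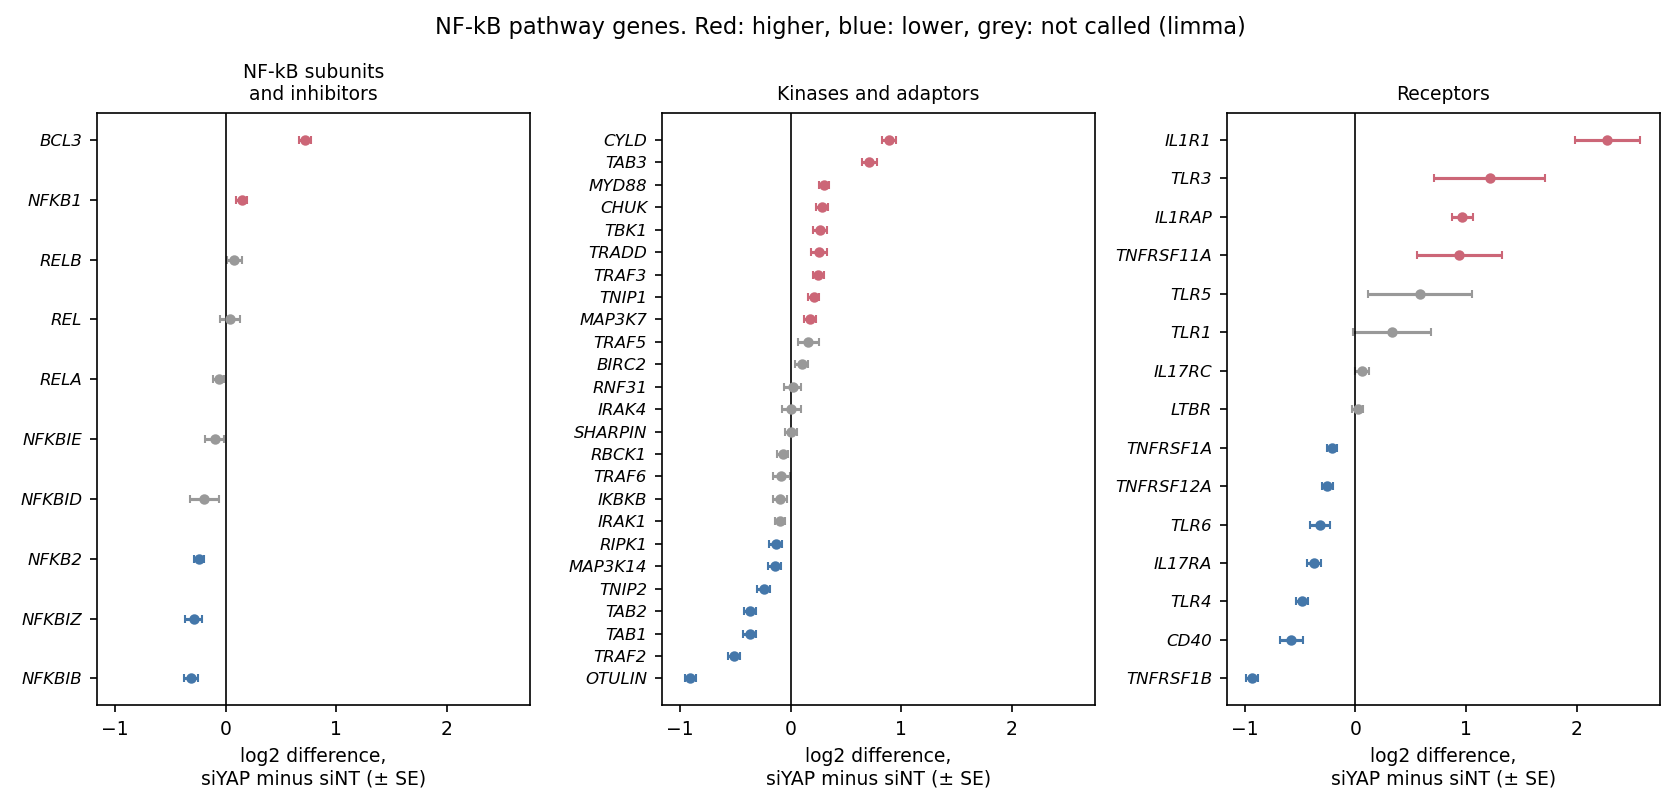
Log2 difference (siYAP minus siNT, horizontal axis) with its standard error for analysed NF-kB subunits and inhibitors, signalling kinases and adaptors, and activating receptors; red points were called higher, blue lower and grey not called. Each panel holds called genes on both sides of 0: 2 against 3, 9 against 7 and 4 against 7.

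The partners of the members were only partly measured. Of 16 genes for their receptors and further ligands, 8 were analysed, and 3 rose, 1 fell and 4 were not called; CSF1R, CSF2RA, CSF2RB, CXCR1 and CXCR2 were not analysed here. IL34, the other ligand of the CSF1 receptor, rose from 3.14, 2.14 and 2.42 to 29.9, 40.5 and 22.8 normalized counts (log2 3.14). ITGAM, an integrin chain that binds ICAM1, was at 13.7 ± 3.51 and 20.6 ± 2.36 (SD, n = 3; limma adjusted p = 0.0934). For LIF, the shared receptor chain IL6ST rose from 3279, 2859 and 3069 to 5251, 5645 and 6079 (log2 0.88). LIFR, the specific chain, was near the floor at 10.5, 5.34 and 3.63 against 1.81, 0 and 0.951, with a log2 difference of -1.98 (limma adjusted p = 0.0102) that was not called without siNT replicate 1 (adjusted p = 0.0785).

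In the wider interleukin-6 family, 6 of 17 analysed genes rose, 6 fell and 5 were not called. The receptor IL6R (log2 0.86), the kinases JAK1 (log2 0.72) and TYK2 (log2 0.36) and SOCS2, 1 of the feedback inhibitors (log2 0.97), rose. The cytokine gene CLCF1 fell with LIF, its mean going from 712 ± 49.4 to 440.1 ± 26.2 (SD, n = 3; log2 -0.69). The limma adjusted p-values of these 5 were 1.37e-11, 8.38e-12, 1.74e-06, 3.69e-05 and 3.07e-08. SOCS3, another feedback inhibitor (log2 -0.34), and STAT3 (log2 -0.14) were called lower, and both were chosen after their values were seen.

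Many cytokine messages, PTGS2 and CSF2 among them, are known to carry AU-rich elements that decay factors bind. Of 12 listed genes for RNA-binding proteins that act on cytokine messages, 3 rose, 6 fell and 3 were not called. With equal totals 2 fell. Not all 12 bind AU-rich elements or speed decay, so the count is not one of such factors alone. ZFP36, which encodes tristetraprolin, a factor that speeds decay, rose its mean going from 926 ± 53.9 to 1290.3 ± 68.0 (SD, n = 3; log2 0.48). RC3H2, of the roquin family, also rose (log2 0.47). HNRNPD, which encodes AUF1 (log2 -0.41), and the tristetraprolin relatives ZFP36L2 (log2 -0.34) and ZFP36L1 (log2 -0.17) fell, the last not called with equal totals (log2 -0.08, limma adjusted p = 0.0799).

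Several genes named beside the members share their annotated span with a listed gene on the other strand, and without the strand setting of the counting such reads cannot be told apart. These are CBR1 (with SETD4), PTGR1 (ZNF483), PTGER4 (TTC33), PLAU (C10orf55), IER3 (IER3-AS1), CLCF1 (RAD9A), JAK1 (RAVER2), HNRNPD (HNRNPD-DT), XRCC4 (TMEM167A), KRT7 (KRT7-AS), KRT8 and KRT18 (with each other), PAX8 (PAX8-AS1), CD68 (ENSG00000233223), ESAM (ESAM-AS1), NFKBIB and IL7 as given above and, among the members, LIF, ICAM1 and TNFAIP3 as given above. CHUK overlaps ERLIN1, KRT7 overlaps KRT86, CDH1 overlaps FTLP14 and SAMD5 overlaps ENSG00000227681 on the same strand.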

How the data were processed

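The authors deposited 1 signal value per gene and library. FastQC, HISAT2, HTSeq and DESeq2 are named without versions, and the builds hg19 and mm9 without a role, per the submitters' processing notes; annotation, gene filter and strand setting of the counting were not given in the sources used here. Dividing each library's values by its smallest value above 0 gave whole numbers within 0.01 for 100% of genes, so the deposited signal is read counts over a size factor. Values were tested as log2(value + 1) with limma 3.58.1 (trend, robust) in R 4.3.3 over 17200 genes with at least 1 in 3 or more libraries, with Benjamini-Hochberg adjustment and calls under 0.05; fold changes on that scale are understated for low genes. On the whole reads so recovered, edgeR 4.0.16 called 9571 of 15659 genes, and DESeq2 1.42.0 called 8778. Alternatives also covered pseudocount, filters, scalings, trend, a replicate block and each library left out. The fit was tested on simulated data, with a spread that was set rather than taken from these libraries. It recovered 23 of 50 genes changed 1.2-fold, 42 of 50 at 1.5-fold, 46 at 2-fold and 50 at 3-fold. There were 10 false calls, and small changes were thus often missed.

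Symbols came from a table by Ensembl identifier (16662) or from GENCODE 29 (81), which also gave coordinates; 468 identifiers were unnamed. The members and all gene lists were chosen with earlier results of these data known. Beside the members, the text names up to 5 genes per list by smallest p, called or not, plus any with a mean of at least 100 and a log2 difference of at least 1, and the 5 genes nearest to PTGS2; others are marked as chosen later. Replicate numbers were not treated as pairs.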

Additional observations from a re-analysis of the deposited data

How the results depend on the processing

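Over 16 other settings, 5 members were called lower and 4 higher in all but 3: limma without a trend and the fit without siNT replicate 2 called 4 lower (ICAM1 lost), and the fit without siYAP replicate 1 called 3 higher (NFKBIA lost). No member changed sign. With the replicate block, 5 members were lower and 4 higher, and 4487 genes were lower and 4654 higher overall. The correlations of same-numbered libraries, taken on deviations from the group means, were -0.171, 0.0034 and 0.0050. Those of differently numbered libraries ran from -0.177 to 0.178. No shared shift of same-numbered libraries was thus seen. With 3 libraries per group this cannot show whether they were handled together, which the labels do not say. Among 87 genes followed over the settings, only the calls of NFKB1 and PACERR changed with the block. Leaving out 1 library gave 4380 to 4876 lower and 4376 to 4942 higher, and equal totals gave 3700 lower and 6050.0 higher, so that 62.1% of calls were higher against 50.4% in the fit reported. Of 1386 values of these 87 genes, 1362 kept their call, 23 lost it and 1 (LIMASI without siYAP replicate 2) gained it. Some genes named in the text, such as KRT8, SOCS3, STAT3, NINJ1 and TNFRSF9, were not among them. LIFR, PACERR and LIF-AS2 gave no value with edgeR or the stricter filter. Depth limits CXCL8 (15 to 54 reads) most among the members.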
